A study of Rattus norvegicus with 10 samples.

Results

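The genes described here are 9 that mark microglia or encode the first component of complement: Cx3cr1, Csf1r, C1qa, C1qb, C1qc, Aif1, Itgam, Tyrobp and Cd68. Every probe set of the array whose annotation gives exactly 1 of these symbols was taken, which gave 10 probe sets of 31099, for 9 genes of 14217 with a symbol of their own. Aif1 had 2 probe sets, here called first and second in order of their mean, and each of the others had 1. The values are log2 expression values from 1 array for each of 10 rats. All 10 were male Lewis rats, an inbred strain, weighing 200 to 250 g. They received no treatment, so they form 1 group and there is no control group. They came from a set of 40 rats given behaviour tests and were killed 6 days after the last test. RNA came from the frontal areas of the prefrontal cortex that lie anterior to 4 mm in front of bregma, a skull landmark, with the olfactory bulb left off. The sources used here do not give their age. Each rat has scores for startle to a loud sound, for prepulse inhibition (the reduction of startle by a weaker sound just before it), for locomotion and for sugar feeding. A plus maze score exists for 7 of them, and the labels leave all scores without units. The question a comparison can address in these data is whether a gene's level varied from rat to rat together with another gene or with a score.

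Microglia are the resident macrophages of the brain and survey the tissue around neurons. They depend on the receptor Csf1r for survival, respond to the neuronal ligand Cx3cl1 through Cx3cr1, and are the main source of C1q in the brain. C1q is built from chains encoded by C1qa, C1qb and C1qc, binds to targets such as antibody complexes, dying cells and synapses, and starts the classical complement pathway. Itgam is the alpha chain of complement receptor 3, Tyrobp is the signalling adaptor of Trem2, Aif1 encodes the microglial marker protein Iba1, and Cd68 is a lysosomal membrane protein of macrophages. The arrays measured a piece of whole tissue, in which fewer cells of a type and less RNA per cell cannot be told apart.

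In the RefSeq gene order of the rat assembly GRCr8, C1qb, C1qc and C1qa follow each other directly on chromosome 5. The stretches before the starts of C1qb and C1qa are shown because these neighbouring genes encode chains of 1 protein. As given below, their highest levels were in different rats. Each is the 250 bases before the annotated start, from RefSeq, on the minus strand, written 5′ to 3′. Capitals mark GGAAGT or its reverse complement, the core bound by ETS factors, the family of the myeloid factor PU.1.
C1qb, chr5:154407828-154408077: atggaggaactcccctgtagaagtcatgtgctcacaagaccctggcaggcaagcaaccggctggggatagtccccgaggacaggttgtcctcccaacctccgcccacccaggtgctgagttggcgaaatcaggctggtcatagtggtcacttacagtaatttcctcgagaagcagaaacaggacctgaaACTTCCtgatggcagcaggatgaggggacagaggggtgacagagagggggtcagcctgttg
C1qa, chr5:154419934-154420183: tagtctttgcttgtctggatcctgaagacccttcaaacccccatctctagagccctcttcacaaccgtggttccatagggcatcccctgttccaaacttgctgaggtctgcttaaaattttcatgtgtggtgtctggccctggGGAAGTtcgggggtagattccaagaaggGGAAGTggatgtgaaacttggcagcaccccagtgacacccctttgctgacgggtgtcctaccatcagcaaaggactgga
C1qa has GGAAGT 107 and 79 bases before its start, and C1qb has its reverse complement 61 bases before its start. On either strand GGAAGT occurs in 19.2% of 33469 rat promoter stretches of this length, and in 3 of the 6 members with an entry (C1qa, C1qb and Cd68). The longer form GAGGAAGT, in 2.04% of all stretches and containing the first motif, was in 0 of the 6. The C/EBP motif TTGCNNAA, in 9.22% of all stretches, was found before Itgam. The AP-1 motif TGANTCA, in 6.34%, was found before Cd68. The motif of interferon regulatory factors, in 3.41%, was in 0 of the 6. All motifs were searched on both strands. These matches describe letters in the sequence and are not binding sites.

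Tests were run on the 15521 probe sets, 50% of those that are not array controls, with the highest mean over all rats, which meant a mean log2 value of at least 3.99. C1qa, C1qb, C1qc and Csf1r passed that filter with 1 probe set each. The other 6 probe sets, for Cx3cr1, Aif1, Itgam, Tyrobp and Cd68, lay under it. Levels of different probe sets are not set against each other, since probes differ in affinity.

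C1qa, the A chain of C1q, varied most among the members that passed. Its log2 value was lowest in rat 3 (7.69), had a median of 8.17 and was highest in rat 7 (8.63), with a mean of 8.20 ± 0.28 (SD, n = 10). The highest rat was 1.92-fold above the lowest. Rats 1, 6 and 7 were at 8.44 or more and rats 5 and 8 were at 8.00, so the values form a range with rat 3 below it. Its SD was larger than that of 88.5% of tested probe sets, whose median SD was 0.135. For C1qc, Csf1r and C1qb this share was 67.2%, 56.1% and 47.3%.

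C1qb, the B chain, spanned 1.46-fold, from 5.97 in rat 2 to 6.51 in rat 6, around a mean of 6.22 ± 0.13 (SD, n = 10). The other 8 rats lay between 6.18 and 6.25. C1qc, the C chain, spanned 1.53-fold, from 5.30 in rat 3 through a median of 5.41 to 5.91 in rat 7, with a mean of 5.47 ± 0.17 (SD, n = 10). Rat 7 and, less so, rat 4 (5.61) were above the other 8, which lay between 5.30 and 5.43. The rat highest for C1qa was thus also highest for C1qc, but rat 6 was highest for C1qb.

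Csf1r, the receptor for Csf1 and Il34, had its lowest value in rat 9 (8.65), a median of 8.74 and its highest in rat 6 (9.08), with a mean of 8.80 ± 0.15 (SD, n = 10). The span was 1.35-fold. Rats 4 and 6, at 9.01 and 9.08, stood above the other 8, which lay between 8.65 and 8.85.

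Of the members under the filter, Cx3cr1 and the first Aif1 probe set varied from rat to rat. Cx3cr1, the receptor for neuronal Cx3cl1, ran from 3.16 in rat 3 through a median of 3.26 to 3.86 in rat 10, a span of 1.63-fold (SD 0.22, n = 10). Rat 10 and rat 6 (3.53) were highest. The first Aif1 probe set ran from 3.11 in rat 3 through a median of 3.45 to 3.86 in rat 6, a span of 1.68-fold (SD 0.23, n = 10). Rat 7, at 3.81, was next to rat 6. These SDs were above those of 97.1% and 97.3% of probe sets under the filter, whose median SD was 0.0345. Most probe sets under the filter follow the array floor, as described below. The means of these 2 lay not far under the filter, at percentiles 43.8 and 45.7 of all probe sets. Tested probe sets had a median SD of 0.135.

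**Figure D1:**
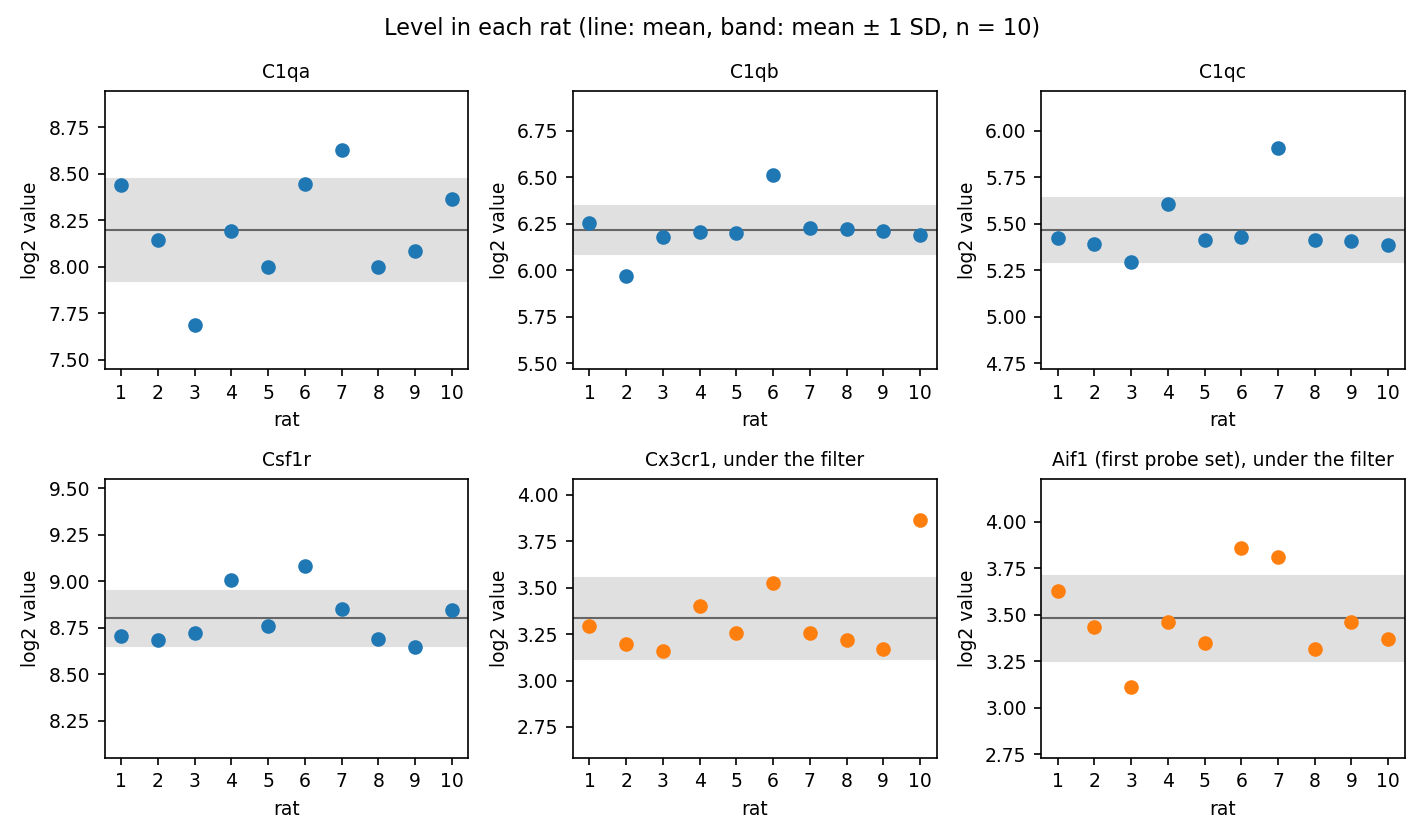
Log2 value (vertical axis, 1.5 log2 units in each panel) of 6 member probe sets in rats 1 to 10 (horizontal axis). Lines are means and bands 1 SD either side (n = 10); C1qa varied most of the 4 that passed the filter, with rat 3 lowest at 7.69, and rat 10 stood apart for Cx3cr1 at 3.86.

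The remaining 4 probe sets barely varied. Tyrobp ran from 2.86 to 3.02, Itgam from 2.48 to 2.55, Cd68 from 1.65 to 1.70 and the second Aif1 probe set from 1.29 to 1.34. Rat 3 was lowest for each. Their small differences followed the floor of each array, taken as the mean of the 25% of probe sets with the lowest means, members left out. Pearson's r with that floor over 10 rats was 0.99 for Cd68 (permutation p = 1e-05, the smallest the resampling can give, rho 0.98). It was 0.97 for the second Aif1 probe set (permutation p = 2e-05, rho 0.98) and 0.94 for Itgam (permutation p = 8e-05, rho 0.95). Without rats 3 and 10, the arrays farthest from the median floor, these became 0.97, 0.94 and 0.91. For Tyrobp r was 0.74 (permutation p = 0.0016, rho 0.98) and 0.72 without the same rats. This is the usual pattern of dim probe sets on these arrays: the median r with the floor was 0.953 over 15515 other probe sets under the filter, and 0.0306 over 15517 other tested ones. Differences between rats in Cd68, Itgam and the second Aif1 probe set are therefore not read as differences in those genes.

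How far each member left the floor was counted as the number of rats whose value, less the floor and less the median of that difference, lay within 0.03 log2. That tolerance was set after the values were seen. Cd68, Itgam and the second Aif1 probe set stayed within it in 10 of 10 rats, and Tyrobp in 9, with rat 7 above by 0.096. C1qb and C1qc each stayed within it in 7 rats. For C1qb, rat 6 lay above by 0.29 and rat 2 below by 0.23, and for C1qc rats 7 and 4 lay above by 0.47 and 0.21. C1qa and Csf1r stayed within it in 2 rats, the first Aif1 probe set in 3 and Cx3cr1 in 4. Among tested probe sets the median was 3 rats, and 10.0% had 7 or more, against 81.3% of those under the filter. C1qb and C1qc passed the filter, yet most of their rats stayed within the tolerance and a few rats set their spread. The floor itself ran only from 2.09 in rat 3 to 2.15 in rat 7. This count therefore cannot tell a probe set that follows the floor from one that is flat.

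**Figure D2:**
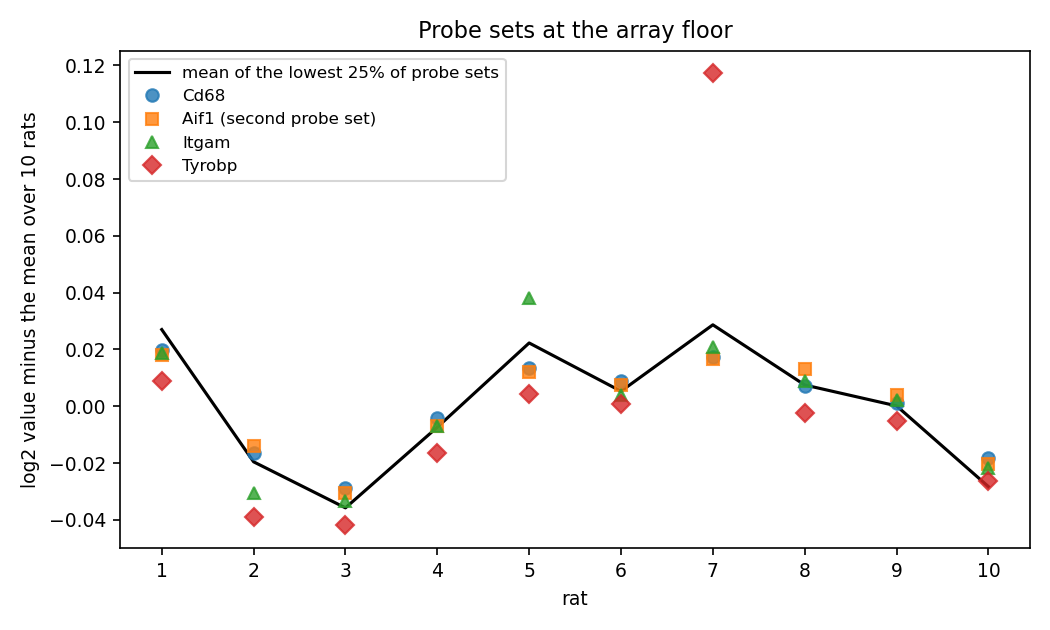
Log2 value less its mean over 10 rats (vertical axis) for Cd68, the second Aif1 probe set, Itgam and Tyrobp in each rat (horizontal axis), with the array floor as a line. Points lie along the line, except Tyrobp in rat 7, which lies above it.

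The members were compared with each other over the 10 rats in 45 pairs of probe sets, with limma fits giving the p adjusted over all probe sets. Among the 6 pairs of members that passed the filter, r was positive in 6, from 0.09 to 0.64 with a median of 0.41. A fit of every tested probe set on each of C1qa, C1qb, C1qc and Csf1r called 0 of the 3 other members at an adjusted p under 0.05. Those fits called 0%, 0%, 0.0387% and 0% of all probe sets. At an unadjusted p under 0.05 each found 1 of 3 members, against 12.9%, 3.45%, 12.7% and 10.2% of all probe sets. Unmoderated least squares also called 0.

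C1qa and C1qc gave a Pearson correlation of 0.64 (permutation p = 0.0509) and a Spearman rho of 0.64 (permutation p = 0.0550). In the limma fit on C1qa the slope of C1qc was 0.11 ± 0.04 (SE) log2 per SD of C1qa, with an adjusted p of 0.336. Without rats 3 and 7, the lowest and highest for C1qa, r was 0.00033, so the relation rested on those rats. C1qa and C1qb gave r = 0.36 (permutation p = 0.292) and rho = 0.61 (permutation p = 0.0663). Their r was 0.49 without rats 3 and 7. For C1qb and Csf1r, r came to 0.63 (permutation p = 0.0484) but rho to 0.32 (permutation p = 0.368). Leaving out rats 4 and 6 gave r = 0.24, so this relation too rested on the rats left out. C1qb and C1qc showed the opposite, r = 0.09 (permutation p = 0.580) but rho = 0.72 (permutation p = 0.0233). Both also followed the rank order of the array floor, with rho 0.73 (permutation p = 0.0205) and 0.75 (permutation p = 0.0172). Pearson's r with the floor was lower, 0.36 for C1qb (permutation p = 0.307) and 0.53 for C1qc (permutation p = 0.113). Without rats 3 and 10 it was 0.40 and 0.38. With the rank of the floor taken out of both, their rank correlation was 0.39. In the limma fit on C1qb the slope of C1qc was 0.02 ± 0.06 (SE). With the floor as a covariate it was -0.02 ± 0.06 (SE, adjusted p = 1.00). Neither linear slope exceeded its SE, so these fits cannot speak to the rank correlation.

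The closest pair of members that left the floor was C1qa and the first Aif1 probe set. Rat 3 was lowest for both, and rats 1, 6 and 7 had the 3 highest values of both. Pearson's r was 0.89 (permutation p = 0.00064) and Spearman's rho 0.89 (permutation p = 0.00116). Without rats 3 and 7, r became 0.75. In the limma fit on this Aif1 probe set, which lay under the filter, C1qa had a slope of 0.24 ± 0.04 (SE) log2 per SD with an adjusted p of 0.220. That fit called 0 of 4 members and 0% of all tested probe sets, while 11% of them and 2 of 4 members had an unadjusted p under 0.05. With the array floor C1qa and the first Aif1 probe set had r of 0.51 (permutation p = 0.132) and 0.61 (permutation p = 0.0614).

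Tyrobp and C1qc were both highest in rat 7. They correlated at 0.88 (Pearson, permutation p = 0.0187) and 0.77 (Spearman, permutation p = 0.0126). Leaving out rats 4 and 7 gave 0.80. In the remaining 8 rats C1qc ran from 5.30 to 5.43 and Tyrobp from 2.86 to 2.91, and in 7 of them both stayed within the tolerance of the floor. In the limma fit on Tyrobp the slope of C1qc was 0.15 ± 0.03 (SE) and its adjusted p 0.0689. That fit called 0 of 4 members and 0.251% of tested probe sets, and at an unadjusted p under 0.05 it found 2 of 4 and 12.3%. The adjusted p of C1qc was 0.0211 when no filter was used, a setting that called 3.67% of all probe sets. It was 0.0481 without rat 4, where the share of all probe sets called is not given here. With the floor as a covariate it was 0.166. Cx3cr1 and Csf1r, both receptors, correlated at 0.57 (Pearson, permutation p = 0.0721) and 0.71 (Spearman, permutation p = 0.0265), with a Pearson value of 0.83 once rats 6 and 10 were left out. Among the rats then left, rat 4 was highest for both, with Cx3cr1 at 3.40 and Csf1r at 9.01. The others lay between 3.16 and 3.29 for Cx3cr1 and between 8.65 and 8.85 for Csf1r. The adjusted p of Csf1r in the fit on Cx3cr1 was 0.691. The fit on Cx3cr1 called 0 of 4 members and 0.00644% of probe sets, with 0 of 4 and 7.4% at an unadjusted p under 0.05.

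**Figure D3:**
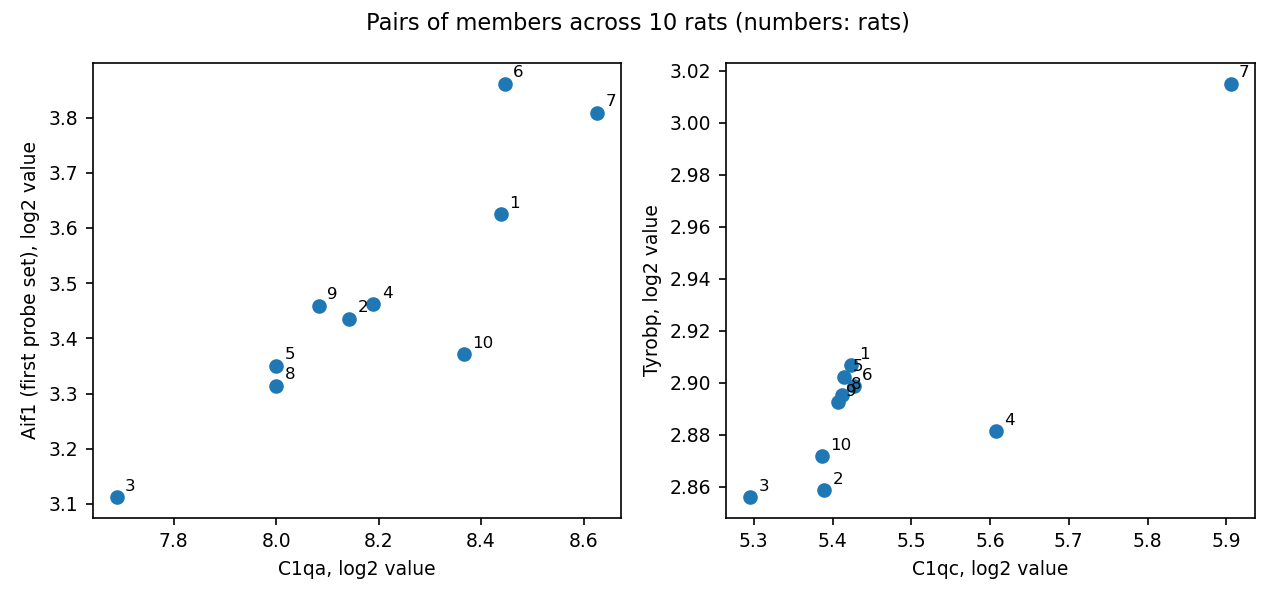
Log2 values of 10 rats, numbered, for C1qa against the first Aif1 probe set (left) and C1qc against Tyrobp (right). On the left the rats spread along a line (r = 0.89); on the right rat 7 stands alone and the others, but for rat 4, crowd together.

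With the filter, the fits on Cd68 and Itgam called 0 of 4 members each and 0% and 0.213% of probe sets, with 0 of 4 members and 7.13% and 6.09% of probe sets at an unadjusted p under 0.05. Without it, the fits on Cd68 and Itgam called 2 other member genes each, Aif1 and Itgam for Cd68, and Aif1 and Cd68 for Itgam. They also called 41.4% and 40.5% of all probe sets, and 76.7% and 75.4% of those under the filter. The correlations among Cd68, Itgam, Tyrobp and the second Aif1 probe set ran from 0.64 to 0.99, and each of these 4 also correlated with the array floor.

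**Figure D4:**
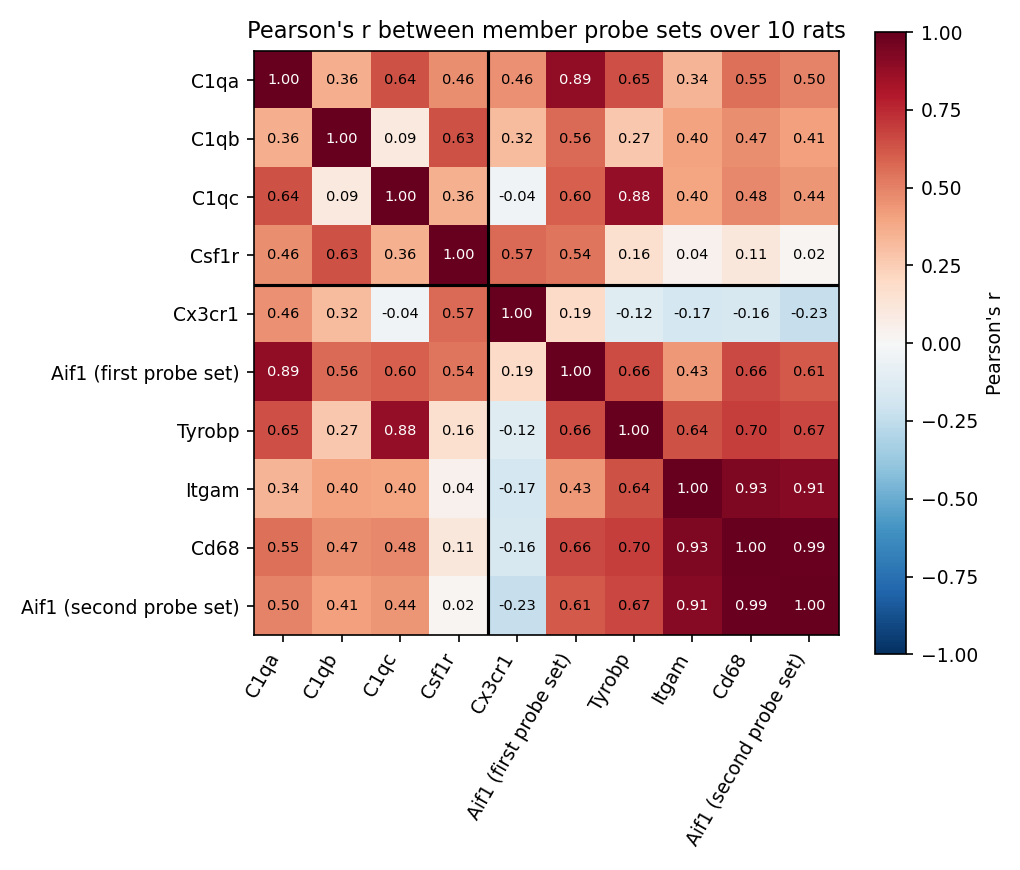
Pearson's r between the 10 member probe sets over 10 rats (blue negative, red positive, lines marking off the 4 that passed the filter). The block of Tyrobp, Itgam, Cd68 and the second Aif1 probe set, which followed the array floor, runs from 0.64 to 0.99, and the 4 that passed run from 0.09 to 0.64.

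Other genes of microglia and macrophages were followed through a list of 63, of which 57 were on the array and 27 passed the filter. In the fit on C1qa, 0 of 27 passed at an adjusted p under 0.05 and 9 of 27 had an unadjusted p under 0.05, against 12.9% of all probe sets. The 9 were P2ry12, Gpr34, Sall1, Laptm5, Ctss, Cst3, Lgmn, Cd9 and Cd63, and each had a positive slope. The list's median slope was 0.08 log2 per SD of C1qa and that of all tested probe sets 0.02. Gpr34, a microglial receptor, had the smallest p, with a slope of 0.20 ± 0.03 (SE, limma adjusted p = 0.125). Sall1, a transcription factor of microglial identity, had 0.27 (limma adjusted p = 0.138), and P2ry12, the ADP receptor of resting microglia, 0.22 (limma adjusted p = 0.148). Rat 3, lowest for C1qa, was also lowest for Gpr34 (6.11) and P2ry12 (9.21). It had the lowest array floor too. With the floor as a covariate, 8 of 27 had an unadjusted p under 0.05, against 12.6% of all probe sets, and the slopes were 0.18 ± 0.04 for Gpr34 (SE, limma adjusted p = 0.264) and 0.20 ± 0.06 for P2ry12 (SE, limma adjusted p = 0.307). With the astrocyte, myelin or striatal score as a covariate in its place, 3, 6 and 8 of 27 did, against 6.21%, 10% and 11.4% of all probe sets.

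In the fit on Csf1r, 5 of 27 of these genes had an unadjusted p under 0.05, against 10.2% of all probe sets: Tmem119, Laptm5, Cd53, Slco2b1 and Cd9. None of the 27 passed after adjustment by limma. With the array floor as a covariate, 5 of 27 had an unadjusted p under 0.05, against 10.3% of all probe sets. With the astrocyte, myelin or striatal score in its place, 2, 0 and 2 of 27 did, against 10.8%, 6.07% and 8.75%. Cd53, a tetraspanin of leukocytes, had a slope of 0.11 ± 0.03 (SE, limma adjusted p = 0.264). The fit on C1qc also gave 5 (P2ry12, Sall1, Cd33, Rgs10 and Cd9), against 12.7% of all probe sets, with Rgs10, a regulator of G protein signalling, at 0.17 ± 0.04 (SE, limma adjusted p = 0.0930). The fit on C1qb gave 1, against 3.45% of all probe sets, Slco2b1 at 0.10 ± 0.03 (SE, limma adjusted p = 1.00). The fit on Cx3cr1 gave 2, against 7.4% of all probe sets, Laptm5 and Cd53, with adjusted p-values of 0.609 for each. Without a covariate, every one of these slopes was positive. In the fit on Cx3cr1 the floor as a covariate gave 5 of 27, against 8% of all probe sets. The myelin score gave 0 against 5.22%, and the striatal score 2 against 6.94%. The astrocyte score gave 2 positive and 1 negative slope, against 6.6%. In the fit on C1qc the floor gave 3 against 10.8%, and the astrocyte score 4 against 13%. The myelin score gave 2 positive and 1 negative slope, against 6.61%.

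Of 46 complement genes listed, 34 were on the array and 14 passed the filter. C1r, the protease that C1q activates first, passed with a mean of 7.12 ± 0.23 (SD, n = 10). C1s, which C1r activates, C3, the central protein of the cascade, and Serping1, the inhibitor of C1r and C1s, lay under the filter, with means of 3.18, 2.48 and 2.95. Serping1 still reached 4.13 in rat 9. C1r was highest in rat 9 as well, at 7.70, and rat 9 had the highest score for meninges and fibroblasts. No complement gene passed at an adjusted p under 0.05 in the fits on C1qa, C1qb, C1qc or Csf1r. At an unadjusted p under 0.05 there were 1, 0, 2 and 0 of 14, against 12.9%, 3.45%, 12.7% and 10.2% of all probe sets. Clu, a regulator of the terminal pathway, had a positive slope on C1qa, and on C1qc Sez6 had a positive and Vtn a negative slope, these names chosen after their values were seen. The array had no probe set annotated with the single symbol Spi1, C4a, C4b or Cd59.

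Of 21 ligands and partners of the members, 17 were on the array and 9 passed the filter. Cx3cl1, the neuronal ligand of Cx3cr1, had a mean of 12.63 ± 0.11 (SD, n = 10). The Csf1r ligands Csf1 and Il34 had means of 6.90 ± 0.18 and 8.76 ± 0.11 (SD, n = 10). Itgb2, the partner chain of Itgam, Trem2, the partner of Tyrobp, and Tgfb1, a factor that maintains microglia, lay under the filter, with means of 2.02, 3.48 and 2.15. In the fit on Csf1r, 0 of the 9 had an unadjusted p under 0.05, against 10.2% of all probe sets. In the fit on C1qa 2 did, Tgfbr1 and Adam17, against 12.9%. The fit on C1qb gave 1, Adam17, against 3.45%. The fit on C1qc gave 1 with a positive slope, Adam17, and 1 with a negative slope, Adam10, against 12.7%. After adjustment 0 passed in each of these fits.

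Markers of other cells were summarised as the mean centred log2 value of each list with at least 3 tested genes. The defining markers of cortical neurons were present, as the tissue label states, with Slc17a7 at a mean of 12.7 and Camk2a at 11.8. In limma fits on 6 such scores, 0 of the 4 members passed at an adjusted p under 0.05. The share of all probe sets called was 0.226% for astrocytes, 1.96% for myelin, 1.42% for striatal projection neurons, 0.0838% for meninges, 0% for endothelium and 1.29% for cortical excitatory neurons. At an unadjusted p under 0.05 the members numbered 2, 3, 1, 0, 0 and 0, against 15.1%, 16%, 14.5%, 3.4%, 10.7% and 13.9% of all probe sets.

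On the astrocyte score C1qa had a slope of 0.22 ± 0.05 (SE) log2 per SD of the score, which did not pass (limma adjusted p = 0.120). Its slope on the myelin score was 0.20 ± 0.06 (SE, limma adjusted p = 0.154). On the myelin score C1qc had 0.12 ± 0.04 (SE, limma adjusted p = 0.161) and Csf1r 0.10 ± 0.04 (SE, limma adjusted p = 0.224). Rat 3 had the lowest myelin score (-0.57) and rat 7 the highest (0.45), the same rats that bounded C1qa and C1qc.

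C1qc had a slope of 0.15 ± 0.03 (SE) on the score of striatal projection neurons, with a limma adjusted p of 0.0613. That p was 0.0336 after quantile normalization, 0.0461 with arrays centred on their medians and 0.0470 without rat 10, so the call depended on those choices. The first 2 settings called 1.7% and 1.58% of all probe sets, and the share called without rat 10 is not given here. The striatal score ran from -0.48 in rat 1 to 0.40 in rat 10, 0.74 in rat 4 and 1.21 in rat 7, and rats 7 and 4 were also the highest for C1qc. Drd2, the dopamine receptor of part of these neurons, ran from 4.05 to 7.57, highest in rat 7. The fit on C1qc called 6 probe sets, among them Arhgap6, Micall1, Pbx3, Pcp4l1 and Rgs9, named after their values were seen. Rgs9 is a regulator of dopamine receptor signalling in striatum. With the striatal score as a covariate, the fit on C1qc gave 0 of 27 other microglia genes at an unadjusted p under 0.05, against 6.89% of all probe sets. In the fit on Tyrobp the slope of C1qc was then 0.10 ± 0.03 (SE, limma adjusted p = 0.388).

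Border macrophages, blood leukocytes and red cells had too few tested markers for a score. For border macrophages, which share most of the member genes, 1 of 10 genes on the array passed the filter, Dab2, an endocytic adaptor, which ran from 8.52 in rat 8 to 10.26 in rat 9 (mean 9.32 ± 0.53, SD, n = 10). Their defining markers Mrc1 (2.25), Cd163 (2.62), Lyve1 (2.75), F13a1 (2.68), Pf4 (2.83) and Stab1 (2.48) had mean log2 values under the filter. Rats 8 and 9, which bounded Dab2, also had the lowest (-0.78) and highest (1.19) scores for meninges and fibroblasts. Which cells gave the Dab2 signal was not tested. For blood leukocytes 1 of 15 passed, the T cell gene Cd3e, with a mean of 5.21 ± 0.06 (SD, n = 10), while S100a8 had a mean of 3.61 and lay under it. For red cells 2 of 4 passed, with Hbb from 12.06 in rat 5 to 12.97 in rat 9. The part of any of these cells in the members' values was not tested.

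None of the members was called with any behaviour score. The limma fits called 0 of 15521 probe sets (0%) for each of the 5 behaviours, and 0 of the 4 members. At an unadjusted p under 0.05 they found 0 of 4 members for each behaviour, against 5.59% of all probe sets for startle, 2.93% for locomotion, 2.13% for sugar feeding, 7.41% for prepulse inhibition and 6.95% for the plus maze. The unmoderated test called 0 members as well. Over the 10 probe sets and 5 behaviours, 50 correlations were computed. They ran from -0.50 to 0.62, and 0 had a permutation p under 0.05.

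For startle the slopes of the 4 members were positive, with a median of 0.05 log2 per SD of the score (all tested probe sets: -0.02). C1qb had the largest, 0.06 ± 0.04 (SE), with a 95% confidence interval from -0.02 to 0.15 and a limma adjusted p of 0.808. C1qb and startle correlated at 0.50 (Pearson, permutation p = 0.149) and 0.36 (Spearman, permutation p = 0.313), with a Pearson value of 0.31 once rats 1 and 2 were left out. C1qc had 0.05, C1qa 0.04 and Csf1r 0.03, and the slopes of C1qa and C1qc turned negative without rat 7. Among ligands, Csf1 had a slope of 0.13 ± 0.05 (SE, limma adjusted p = 0.808) and Il34 of -0.07 ± 0.03 (SE, limma adjusted p = 0.808), neither past the threshold. These had unadjusted p-values of 0.0186 and 0.0405.

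For locomotion C1qc had a slope of 0.06 ± 0.05 (SE, 95% confidence interval -0.06 to 0.18), C1qa 0.05, C1qb -0.03 and Csf1r 0.02, whose sign turned with arrays centred on their medians (-6.71e-05). Each had a limma adjusted p of 1.00. Csf1, whose receptor is Csf1r, had -0.12 ± 0.05 (SE) with an unadjusted p of 0.0229 and a limma adjusted p of 1.00.

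For sugar feeding C1qa had 0.08 ± 0.08 (SE, 95% confidence interval -0.11 to 0.27), C1qc 0.06, C1qb -0.02 and Csf1r 0.0095, which turned negative under both other scalings. The r of C1qc was 0.36 (permutation p = 0.330) and -0.12 without rats 5 and 7.

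For prepulse inhibition C1qa had -0.06 ± 0.09 (SE, 95% confidence interval -0.25 to 0.13). C1qc had 0.03, Csf1r 0.03 and C1qb 0.02, with limma adjusted p-values from 0.916 to 0.934 over the 4 members.

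For the plus maze, scored in 7 rats, C1qa had the largest slope of a member in any behaviour, -0.12 ± 0.08 (SE), with a 95% confidence interval from -0.31 to 0.07 and a limma adjusted p of 0.874. Its r was -0.50 (exact permutation p = 0.271) and 0.02 without rats 4 and 5, the 2 highest scores. C1qc had -0.04, C1qb 0.02 and Csf1r 0.0085. Itgam had r = 0.62 (exact permutation p = 0.129), over a span of 1.05-fold that followed the array floor in all 10 rats. Of the other microglia genes, Grn, a lysosomal and secreted protein, had -0.10 ± 0.04 (SE, limma adjusted p = 0.685). Ctss, a lysosomal protease, had -0.12 ± 0.05 (SE, limma adjusted p = 0.686). Il34 had -0.09 ± 0.04 (SE, limma adjusted p = 0.715).

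**Figure D5:**
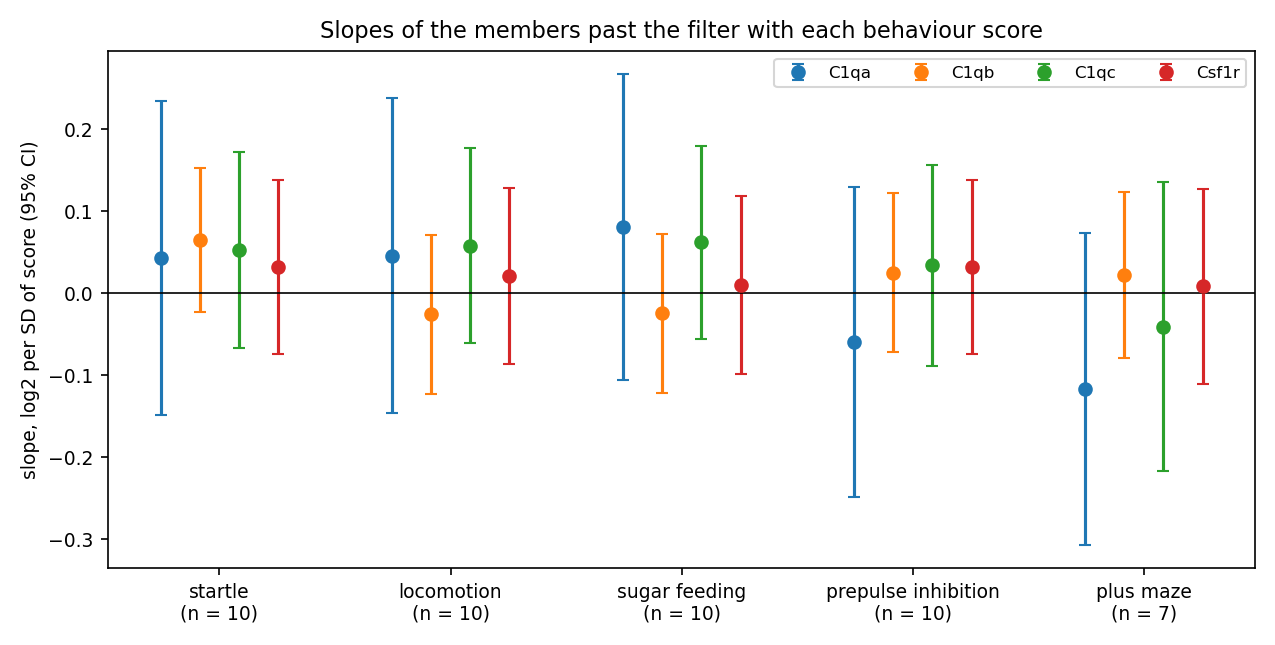
Slope in log2 per SD of the score (vertical axis) with its 95% confidence interval for C1qa, C1qb, C1qc and Csf1r in the 5 behaviours (horizontal axis; 10 rats, 7 for the plus maze). Every interval includes 0, and the widest are those of C1qa, such as -0.31 to 0.07 for the plus maze.

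The lists of related genes gave 0 calls in every behaviour after adjustment. At an unadjusted p under 0.05, the 27 other microglia genes numbered 0 for startle, 1 for locomotion (Gas6, a ligand of Axl and Mertk), 0 for sugar feeding, 1 for prepulse inhibition (Lyz2, lysozyme) and 2 for the plus maze. The 14 complement genes numbered 1, 1, 1, 2 and 1 in the same order: Cd93 for startle, Sez6 for locomotion, C8g for sugar feeding, C8g and Cd93 for prepulse inhibition and C8g for the plus maze, named after their values were seen. The 9 ligands and partners numbered 2, 1, 0, 1 and 1. In the same order, the share of all probe sets at an unadjusted p under 0.05 was 5.59%, 2.93%, 2.13%, 7.41% and 6.95%. Cx3cl1 had unadjusted p-values from 0.309 to 0.696.

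The genes whose pattern over the 10 rats was most like the mean of the 4 members that passed were found among 11572 tested probe sets with a single symbol. That mean was lowest in rat 3 (-0.20) and highest in rats 7 (0.23) and 6 (0.20). The 8 genes with the highest r were Gstm1 (0.97), Syf2 (0.96), Pon2 (0.95), Plekhb1 (0.94), Sdc4 (0.94), Bcan (0.93), Pnp (0.93) and Sympk (0.93). The other tested probe set of Bcan had 0.676. The lowest were Rmnd1 (-0.95), Slit3 (-0.93), Fezf2 (-0.89) and Bmp3 (-0.87). These were picked from all candidates, whose median r was 0.19 with the 5th and 95th percentiles at -0.49 and 0.73, so the values describe the ranking and carry no test.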

How the data were processed

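The expression of the 10 prefrontal cortex samples was measured on Affymetrix arrays, 1 per rat, and each deposited log2 value summarises a probe set. The authors made these values, per the submitters' processing notes, with GCRMA under R 2.6.2, which corrects background by probe sequence, normalises by quantiles and summarises probes. The sources used here name no GCRMA version. Gene names came from the annotation of the platform: of 31042 that are not array controls, 20826 had 1 symbol, 436 several and 9780 none.

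Members and gene lists were chosen with earlier results of these data known. Slopes of log2 value on a score, a member or a cell type score, each scaled to an SD of 1, were estimated by limma 3.58.1 (R 4.3.3; lmFit and eBayes, two-sided, Benjamini-Hochberg over all tested probe sets, threshold 0.05). The code was tested on simulated data. Correlations were tested on both sides by permutation, drawing 100000 resamples over 10 rats and all orders over 7, and were repeated without the 2 rats farthest from the median of the first measure. The named genes were the members, fixed ligands, partners and complement genes, the 3 smallest p-values per direction of the other microglia list, and the 8 most and 4 least alike genes. Alternatives were other scalings, no filter, ranked scores, other variance models and each rat left out. The replicates are separate rats, and their number limits the precision. Depth does not apply to arrays.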

Additional observations from a re-analysis of the deposited data

Results flagged for a closer look

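Among 10 rats, 4 of the 10 member probe sets had a highest value set far apart from the rest, by Dixon's ratio of the gap to the nearest rat over the whole range, whose value was past the 95% critical value. Chance flags about 1 in 20 such groups. On these arrays a highest value past the same ratio was found in 7.4% of the other tested probe sets and 10.9% of the others under the filter, and one past it at either end in 14.3% and 14%. Tyrobp in rat 7 was at 3.02 with the next rat at 2.91, a ratio of 0.680. C1qc in the same rat was at 5.91 with the next at 5.61, a ratio of 0.489. Rat 7 also had the highest score of striatal projection neurons. Cx3cr1 in rat 10 was at 3.86 with the next at 3.53, a ratio of 0.478. C1qb in rat 6 was at 6.51 with the next at 6.25, a ratio of 0.476. Tyrobp and Cx3cr1 lay under the filter, and the cause was not tested for any of the 4.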

How the results depend on the processing

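No paired analysis was possible because all rats form 1 group with 1 array apiece. The count of members called with a behaviour stayed at 0 under every alternative run, with lowest adjusted p-values of 0.650 for startle, 0.959 for locomotion, 0.734 for sugar feeding, 0.618 for prepulse inhibition and 0.752 for the plus maze. Of 171 alternatives for the fits between members, 167 kept the count. The others were 2 members in the fits on Itgam and on Cd68 and 1 in the fit on Tyrobp without the filter, and a range of 0 to 1 for Tyrobp when each rat was left out, 1 being without rat 4. Of 90 alternatives for the cell type scores, 87 kept the count; the striatal score gave 1 after quantile normalization, 1 with centred arrays, and 0 to 1 when each rat was left out, 1 being without rat 10. Astrocyte, myelin and striatal scores were used as covariates after being picked on unadjusted p-values, and the array floor was added as a covariate after the data were seen. Csf1r reversed to -6.71e-05 for locomotion with centred arrays, and to -0.0015 after quantile normalization and -0.0023 with centred arrays for sugar feeding; the cause was not tested. With each rat left out, slopes that changed sign ranged for startle from -0.027 to 0.103 (C1qa) and -0.018 to 0.074 (C1qc), for locomotion from -0.034 to 0.049 (Csf1r), for sugar feeding from -0.0069 to 0.026 (Csf1r) and -0.0067 to 0.096 (C1qc), for prepulse inhibition from -0.019 to 0.041 (C1qb), and for the plus maze from -0.0065 to 0.069 (Csf1r), -0.0063 to 0.043 (C1qb) and -0.064 to 0.013 (C1qc). The other scalings moved array medians by at most 0.07 log2. Signal over background limits Cd68, Itgam, Tyrobp and the second Aif1 probe set.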
